A study of Homo sapiens with 6 samples.

Results

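Sphingosine-1-phosphate (S1P) receptors and ceramide enzymes were described in Hep3B cells with and without knockdown of DAGLA, the gene of diacylglycerol lipase alpha. The group comprised 10 genes of the 29582 named genes in the table, namely S1PR1, S1PR2, S1PR3, S1PR5, SPHK1, SPHK2, SGPL1, ACER2, ACER3 and CERS2. It was chosen by symbol, and because S1PR3 and ACER2 were lower after knockdown in these same libraries, so every difference between groups in the 10 genes is given as a description, with no p-value.

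Hep3B is a long-established cell line from a human hepatocellular carcinoma. Hep3B-Con cells were infected with a control lentivirus and Hep3B-KD cells with a lentivirus carrying the hairpin shDAGLA, both at a multiplicity of infection of 5 and both followed by puromycin selection of stable cells. The control is named shControl in the sample records and an empty vector in the series record, while the study's methods speak of negative sequences, so what the control virus carried is not settled by these sources. Each group had 3 libraries, described as biological replicates of 1 cell line and 1 hairpin, with no statement that they came from separate cultures, and p-values therefore measure only the spread between these libraries.

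S1P is a signalling lipid made inside the cell when a sphingosine kinase phosphorylates sphingosine. Sphingosine itself is released from ceramide by ceramidases, and ceramide is built by ceramide synthases, so the same few steps set the balance between ceramide, often linked to growth arrest and cell death, and S1P, often linked to survival and migration. S1P is exported, carried in plasma on the hepatocyte protein apolipoprotein M, and read by a small family of G protein-coupled receptors, some of which act on the cytoskeleton and on the Hippo effector YAP. The Hippo pathway was 1 of the pathways the study examined after DAGLA knockdown.

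The targeted transcript was lower in the libraries labelled as knockdown. DAGLA stood at 9.28 ± 0.228 FPKM (a read number divided by exon length and library depth, mean ± SD, n = 3) in Hep3B-Con and at 4.62 ± 0.164 FPKM in Hep3B-KD, a log2 fold change of -0.99 (SE 0.0442, limma with Benjamini-Hochberg adjustment, adjusted p = 4.9e-06). Libraries held 15861039 to 17572714 reads. Hepatocyte markers such as ALB and AFP were present in all libraries, and the summed level of the 9 on the list ranged from 2584 to 2633 FPKM in Hep3B-Con and from 4098 to 4115 FPKM in Hep3B-KD. Most of this sum was ALB, and 7 of the 9 genes were higher in all knockdown libraries, whereas FGB went from 19.5 ± 0.825 to 9.96 ± 0.351 FPKM and HNF4A from 56.2 ± 0.262 to 43.9 ± 0.809 FPKM. The summed level of 5 fibroblast markers ranged from 9.28 to 10.2 FPKM against 5.48 to 5.94 FPKM, and that of the 4 of 5 leukocyte markers in the table from 2.83 to 4.47 FPKM against 4 to 4.83 FPKM. The part of these shifts in the results that follow was not tested, and in bulk RNA fewer cells that express a gene cannot be told apart from less RNA per cell.

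The hairpin sequence is shown because short stretches of a guide strand can also pair with other transcripts. Capitals mark bases 2 to 8 of the guide strand, its seed, or the 7 bases complementary to them. The 19-base target lies at chr11:61740504-61740522 on the plus strand (GRCh38, GENCODE release 29), in the coding part of exon 18 of 20 of the transcript DAGLA-201, and an exact match was found in the coding transcripts of 1 gene in the table. All sequences are written 5′ to 3′.
shDAGLA target: gcgacaacaagGCCTTCAa
guide strand complementary to it: tTGAAGGCcttgttgtcgc

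The seed match occurred in the 3′ untranslated region (UTR) of 2 of the 10 genes, S1PR3 and SGPL1, both on the plus strand. In S1PR3 it lay at chr9:89004612-89004618, base 2275 of the 3′ UTR, and in SGPL1 at chr10:70877369-70877375, base 34 of the 3′ UTR, both counted on the transcript with the longest coding part. The 10 bases on either side are shown in lower case.
S1PR3: aagtatctcaGCCTTCAtccattaact
SGPL1: ggggattccaGCCTTCAgaaggttctt

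Across the transcriptome the same 7 bases were found in the 3′ UTR of 12.2% of the 11174 tested genes with a 3′ UTR of at least 50 bases. The median log2 fold change of genes with a match was -0.07 and that of genes without one was 0.11. These sets of genes were not matched for 3′ UTR length, and the part of the match in this gap was not tested. Where the longest 3′ UTR of any coding transcript was taken instead, SGPL1 was the 1 member left with a match, because the longest UTR under S1PR3 belongs to a transcript without the receptor reading frame, and the share of all genes was 14.3%. A match is a stretch of letters, and its part in the levels of S1PR3 and SGPL1 was not tested.

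The widest difference among the 8 members past the filter was that of S1PR3. S1PR3 (ENSG00000213694, chr9:88990863-89005010, plus strand) encodes a receptor that couples to several G protein families. It was read at 1.76, 1.51 and 1.5 FPKM in Hep3B-Con and at 0.149, 0.161 and 0.217 FPKM in Hep3B-KD, which correspond to 420, 357 and 339 reads against 32, 35 and 49 reads. All 3 knockdown libraries lay far below all 3 control libraries. The mean of 1.59 ± 0.147 FPKM in Hep3B-Con was 9.06-fold that of 0.176 ± 0.0368 FPKM in Hep3B-KD. On the log2(FPKM + 0.1) scale, which understates folds of low genes, the difference was -2.62 (SE 0.215), and 20 of the 14147 genes tested had a lower value. S1PR3 passed the filter of a mean of 0.5 FPKM through its control libraries.

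The scale of the S1PR3 difference depended on the pseudocount. It was -1.14 with a pseudocount of 1, -3.12 with 0.01, -3.18 with voom on the recovered reads and -3.35 after quantile normalization. It was negative in every setting that tested S1PR3. The gene model is a further limit. GENCODE release 29 places 7 transcripts under S1PR3, of which 2 carry the receptor reading frame, and 35.5% of the 13578 exon bases belong only to the other 5, so that reads from receptor and non-receptor transcripts cannot be told apart in these values.

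S1PR2 (ENSG00000267534, chr19:10221433-10231331, minus strand), a receptor that couples strongly to GNA12 and GNA13, was the highest receptor of the family in every library. Its values were 6.73, 6.06 and 6.53 FPKM in Hep3B-Con and 3.24, 4.03 and 3.76 FPKM in Hep3B-KD. The groups did not overlap, the lowest control library being well above the highest knockdown library. The means were 6.44 ± 0.343 and 3.68 ± 0.405 FPKM, with a log2 fold change of -0.80 (SE 0.0882). Of its exon bases 2.28% are shared with DNMT1 on the same strand. DNMT1 was much higher, at 54.85 to 55.71 FPKM in Hep3B-Con and at 49.84 to 51.47 FPKM in Hep3B-KD. How reads over the shared bases were counted is not given in the sources used here.

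S1PR1 (ENSG00000170989, chr1:101236865-101243713, plus strand), the receptor best known from endothelium and lymphocytes, went the other way at a very low level. It was counted with 9, 8 and 6 reads in Hep3B-Con and with 19, 24 and 29 reads in Hep3B-KD, or 0.0981, 0.0881 and 0.0690 FPKM against 0.229, 0.286 and 0.335 FPKM. Every knockdown library exceeded every control library, with a ratio of the mean FPKM values of 3.33, but the gene lay under the filter and was not part of the fit. Among 5 endothelial markers, CDH5, VWF, KDR and TEK had at most 3 reads in every library, and the summed level of the list ranged from 0.194 to 0.217 FPKM in Hep3B-Con and from 0.278 to 0.385 FPKM in Hep3B-KD. Most of that sum was PECAM1, with 25 to 28 reads against 33 to 48.

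S1PR5 (ENSG00000180739, chr19:10512742-10517931, minus strand), a receptor known from natural killer cells and oligodendrocytes, was at the limit of detection. It had 2, 1 and 0 reads in Hep3B-Con and 0, 1 and 0 reads in Hep3B-KD, below the floor of 3 reads in each library, and no fold is given. S1PR4, the remaining receptor of the family and typical of leukocytes, had 1 read in 1 control library and 0 in the other 5. Differences in these genes were not detectable at this depth.

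**Figure D1:**
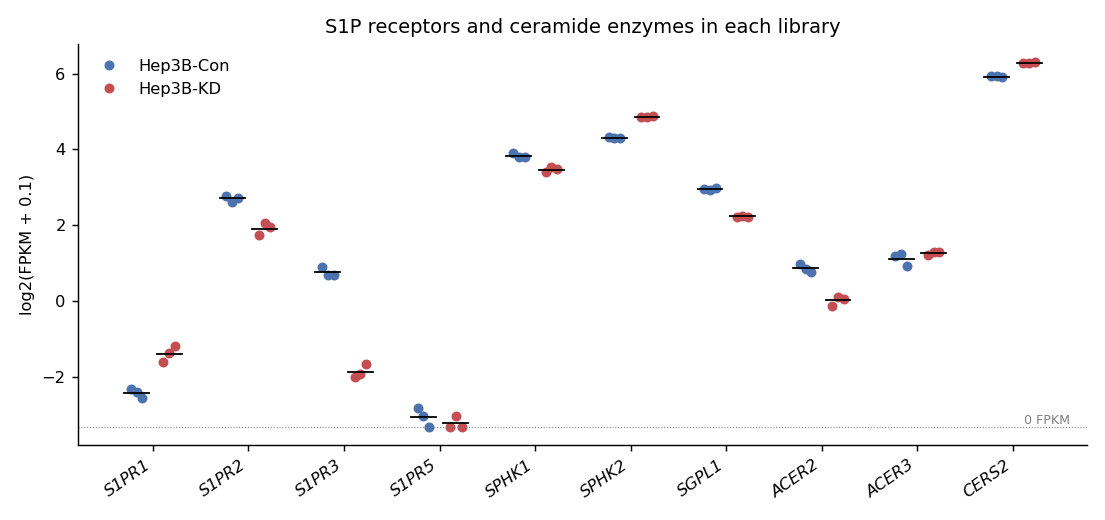
Level of the 10 genes in each of the 6 libraries as log2(FPKM + 0.1), with blue points for Hep3B-Con, red points for Hep3B-KD and a black line at the mean of each group of 3 libraries. S1PR2, S1PR3, SPHK1, SGPL1 and ACER2 lie lower in all knockdown libraries, S1PR1, SPHK2 and CERS2 higher, and ACER3 and S1PR5 overlap.

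Because FPKM values are scaled by gene length, the receptors can be set against each other. Their summed level was 8.15 ± 0.458 FPKM in Hep3B-Con and 4.14 ± 0.467 FPKM in Hep3B-KD. Within that sum S1PR2 held 79.1% ± 1.39 and then 88.8% ± 1.38, S1PR3 held 19.5% ± 0.941 and then 4.24% ± 0.751, and S1PR1 held 1.04% ± 0.166 and then 6.82% ± 0.819 (SD, n = 3). By FPKM the order of the levels was thus S1PR2, S1PR3, S1PR1 in every control library and S1PR2, S1PR1, S1PR3 in every knockdown library. There the ranges of S1PR1 (0.229 to 0.335 FPKM) and S1PR3 (0.149 to 0.217 FPKM) were close but did not overlap. In reads, S1PR3 (32, 35 and 49) was above S1PR1 (19, 24 and 29) in Hep3B-KD. The order of S1PR1 and S1PR3 after knockdown thus depends on whether reads are scaled by gene length. S1PR2 stood at 4.06 ± 0.269 times S1PR3 in Hep3B-Con and at 21.4 ± 3.95 times in Hep3B-KD. When reads were divided by the longest coding transcript in place of all exons of the gene, the order was the same as by FPKM. The shares were then 70.3% and 82.2% for S1PR2, 27.7% and 6.26% for S1PR3, and 1.66% and 11.3% for S1PR1. The reads were still those over all exons of each gene. For S1PR3 they may include reads from transcripts without the receptor reading frame. The longest coding transcript of S1PR3 has 8505 bases. The other transcript with the receptor reading frame has 4206, and shares with it were not computed.

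The sphingosine kinases differed between groups in opposite directions. SPHK1 (ENSG00000176170, chr17:76376584-76387860, plus strand) encodes the mainly cytosolic kinase that is recruited to the plasma membrane and supplies S1P for export. It was measured at 14.9, 13.8 and 13.8 FPKM in Hep3B-Con and at 10.5, 11.4 and 11 FPKM in Hep3B-KD. The groups were apart, with means of 14.2 ± 0.638 and 10.97 ± 0.486 FPKM and a log2 fold change of -0.37 (SE 0.0485). SPHK2 (ENSG00000063176, chr19:48619291-48630717, plus strand) encodes the kinase found also in the nucleus and mitochondria. Its values were 19.97, 19.54 and 19.5 FPKM in Hep3B-Con and 28.7, 28.8 and 29.2 FPKM in Hep3B-KD. The spread within each group was small beside the gap between them, with means of 19.7 ± 0.263 and 28.9 ± 0.256 FPKM and a log2 fold change of 0.55 (SE 0.0238).

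SPHK1 therefore made up 41.9% ± 0.759 of the summed kinase level in Hep3B-Con and 27.5% ± 0.839 in Hep3B-KD, whereas the sum itself was 33.9 ± 0.901 and 39.9 ± 0.624 FPKM. Some SPHK2 exons lie over genes on the opposite strand, 11% of its exon bases over DBP, 11.3% over AC022154.1 and 4.09% over RPL18, and the strandedness of the counting is not given in the sources used here. RPL18 was at 109 to 115 FPKM in Hep3B-Con and at 89.6 to 92.3 FPKM in Hep3B-KD.

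**Figure D2:**
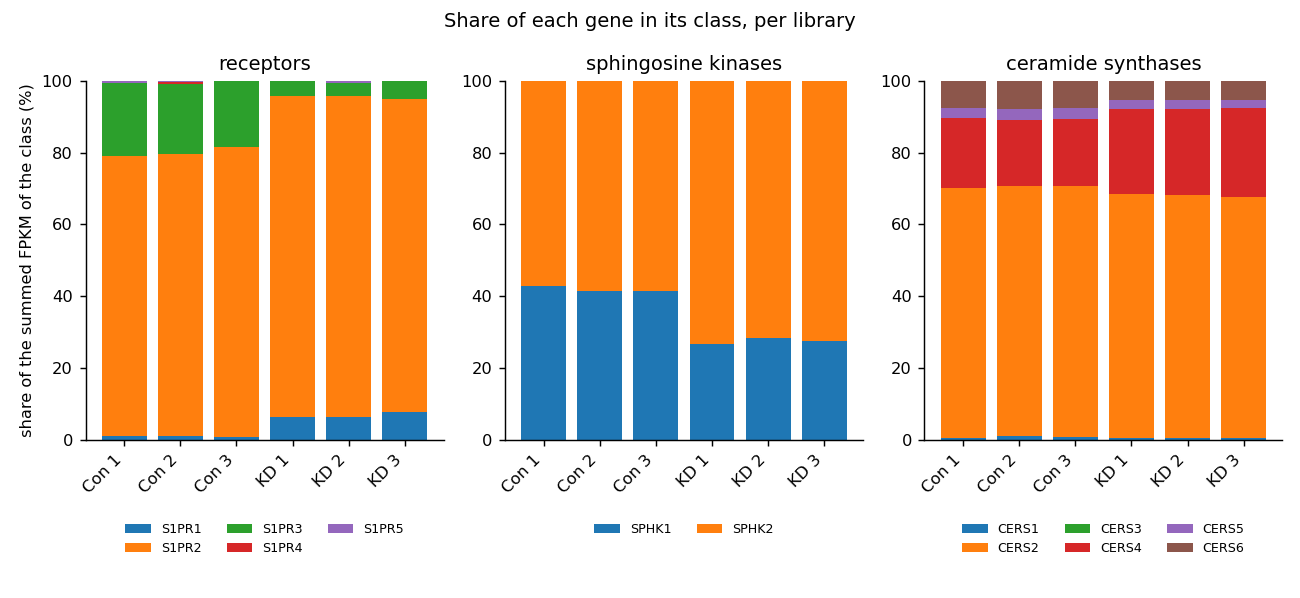
Share of each gene in the summed FPKM of its class in every library, as stacked bars that add to 100%, for the S1P receptors, the sphingosine kinases and the ceramide synthases. S1PR3 holds 18.5% to 20.4% of the receptor sum in the control libraries and 3.56% to 5.05% in the knockdown libraries, while CERS2 keeps more than any other ceramide synthase in all 6.

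Promoters were examined for both kinases and the other members, since YAP acts through TEAD factors, whose core motif is GGAATG. RefSeq promoter windows (GRCh38.p14, 250 bases before to 50 bases after a transcription start) were at hand for 9 of the 10 genes, with CERS2 missing. These 9 genes had 14 windows, so a count of genes and a share of windows are unlike measures. The motif, on either strand, was present in windows of SPHK1 and SPHK2 and in 14% of all 35116 windows. It is printed in capitals with its flanks, at chr17:76383098-76383103 on the minus strand for SPHK1 and at chr19:48624909-48624914 on the plus strand for SPHK2.
SPHK1: tgcaggacccatCATTCCgacacgcgccgc
SPHK2: ctctgggcctggGGAATGtgaggggcagga

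The motif was thus found in a window of 1 gene that was lower and of 1 that was higher in Hep3B-KD. Both motifs lie within the gene spans given above, before a start inside the gene. TEAD binding was not measured, and nothing is drawn from the match or from its absence in the windows of the other members.

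SGPL1 (ENSG00000166224, chr10:70815961-70881173, plus strand) encodes S1P lyase, the enzyme that cleaves S1P irreversibly and so provides the exit from the sphingolipid pathway. It was measured at 7.69, 7.49 and 7.86 FPKM in Hep3B-Con and at 4.56, 4.66 and 4.59 FPKM in Hep3B-KD. The knockdown libraries lay close together and clearly below the control libraries. The means were 7.68 ± 0.186 and 4.601 ± 0.0518 FPKM, with a log2 fold change of -0.73 (SE 0.0399).

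Set against the lyase, both kinases stood higher in Hep3B-KD. The ratio of SPHK1 to SGPL1 was 1.95, 1.85 and 1.76 in Hep3B-Con and 2.3, 2.46 and 2.397 in Hep3B-KD. The ratio of SPHK2 to SGPL1 was 2.60, 2.61 and 2.48 in Hep3B-Con and 6.30, 6.19 and 6.36 in Hep3B-KD. Neither ratio overlapped between groups, and the ratio of SPHK1 to SPHK2 was 0.722 ± 0.0227 against 0.379 ± 0.016. These are ratios of transcripts, and S1P, sphingosine and ceramide were not among the values used here.

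**Figure D3:**
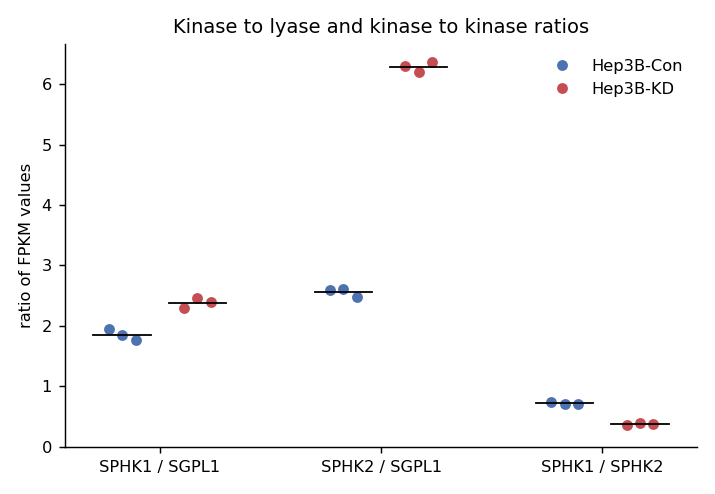
Ratios of FPKM values within each library for SPHK1 to SGPL1, SPHK2 to SGPL1 and SPHK1 to SPHK2, with blue points for Hep3B-Con, red points for Hep3B-KD and a black line at the mean of 3 libraries. The mean of SPHK2 to SGPL1 is 2.56 in Hep3B-Con and 6.28 in Hep3B-KD, the widest gap of the 3 ratios.

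Ceramidases release sphingosine, the substrate of the kinases. ACER2 (ENSG00000177076, chr9:19409059-19452020, plus strand) encodes the alkaline ceramidase of the Golgi. It was measured at 1.88, 1.70 and 1.58 FPKM in Hep3B-Con and at 0.817, 0.974 and 0.942 FPKM in Hep3B-KD, from 59 to 74 reads against 29 to 35 reads. All knockdown libraries were below all control libraries, with means of 1.72 ± 0.15 and 0.911 ± 0.083 FPKM and a log2 fold change of -0.85 (SE 0.123). Over the alternative settings this difference lay between -1.12 and -0.51. Among the 8 members past the filter its SE was the widest after that of S1PR3.

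ACER3 (ENSG00000078124, chr11:76860867-77026797, plus strand), the alkaline ceramidase that prefers unsaturated long-chain ceramides, was the 1 member past the filter whose groups overlapped. Its values were 2.16, 2.26 and 1.79 FPKM in Hep3B-Con and 2.23, 2.33 and 2.36 FPKM in Hep3B-KD. The third control library was the lowest, and the first and second were within the range of the knockdown libraries or just under it. The log2 fold change was 0.16 (SE 0.101), and it turned to -0.08 after quantile normalization. Of the summed level of ACER2, ACER3, ASAH1 and ASAH2, ACER2 held 16.3% ± 0.954 in Hep3B-Con and 9.59% ± 0.724 in Hep3B-KD, and the lysosomal acid ceramidase ASAH1 held 60.0% ± 2.32 and 60.6% ± 2.14. With reads divided by the longest coding transcript, ACER2 held 4.71% and 2.75%, and ASAH1 held 87.6% and 87.7%. The size of these shares thus depends on the length used.

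CERS2 (ENSG00000143418, chr1:150960583-150975004, minus strand) encodes the ceramide synthase that makes very-long-chain ceramides and is the main form in liver. It was the highest of the 10 genes in every library, at 61.5, 60.9 and 59.8 FPKM in Hep3B-Con and at 77.8, 77.6 and 79.0 FPKM in Hep3B-KD. The groups were apart, with means of 60.7 ± 0.881 and 78.1 ± 0.792 FPKM and a log2 fold change of 0.36 (SE 0.0196). Of its exon bases 20.4% lie over SETDB1 on the opposite strand, which was at 8.92 to 9.14 FPKM in Hep3B-Con and at 9.91 to 10.6 FPKM in Hep3B-KD, and 16.8% lie over the antisense gene AL590133.2.

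Although CERS2 was higher in Hep3B-KD, its share of the ceramide synthases was slightly lower, at 69.8% ± 0.0892 against 67.7% ± 0.426. CERS4, which makes long-chain ceramides, held 18.9% ± 0.454 and then 24.1% ± 0.485, and it rose with a log2 fold change of 0.76 (SE 0.0392, adjusted p = 8.8e-06). The other forms did not pass the test as fitted. CERS6, which makes C16 ceramide, was at 6.62 ± 0.14 and 6.14 ± 0.127 FPKM (adjusted p = 0.0522, from 0.00354 to 0.144 over the alternative settings, with groups that did not overlap), CERS5 at 2.62 ± 0.0162 and 2.72 ± 0.171 FPKM (adjusted p = 0.538) and CERS1 at 0.683 ± 0.152 and 0.527 ± 0.0447 FPKM (adjusted p = 0.297). CERS3, a form of skin and testis, had 1 read in 1 knockdown library and 0 elsewhere.

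Of the 10 genes, 8 passed the filter of a mean of at least 0.5 FPKM and 7 of these were called by limma at an adjusted p under 0.05, 2 higher and 5 lower in Hep3B-KD, where 60.3% of all 14147 genes tested were called, 36.3% higher and 24% lower. With a fold change of at least 2 required as well, S1PR3 was the 1 member called, against 8.83% of all genes, 5.88% higher and 2.95% lower. The values of the groups did not overlap in 7 of the 8, 2 higher and 5 lower, against 67.2% of all genes tested, 40.8% higher and 26.4% lower. The members were picked on this contrast, so these calls only place them in the fit over all genes and are no test of the group.

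The median log2 fold change over all genes tested was 0.11, so that a value of 0 is not the middle of the transcriptome. Relative to that median S1PR3 differed by -2.73, ACER2 by -0.96, S1PR2 by -0.91, SGPL1 by -0.83 and SPHK1 by -0.48, and SPHK2 differed by 0.44, CERS2 by 0.25 and ACER3 by 0.05. ACER3 was the 1 member whose sign turned under another scaling.

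**Figure D4:**
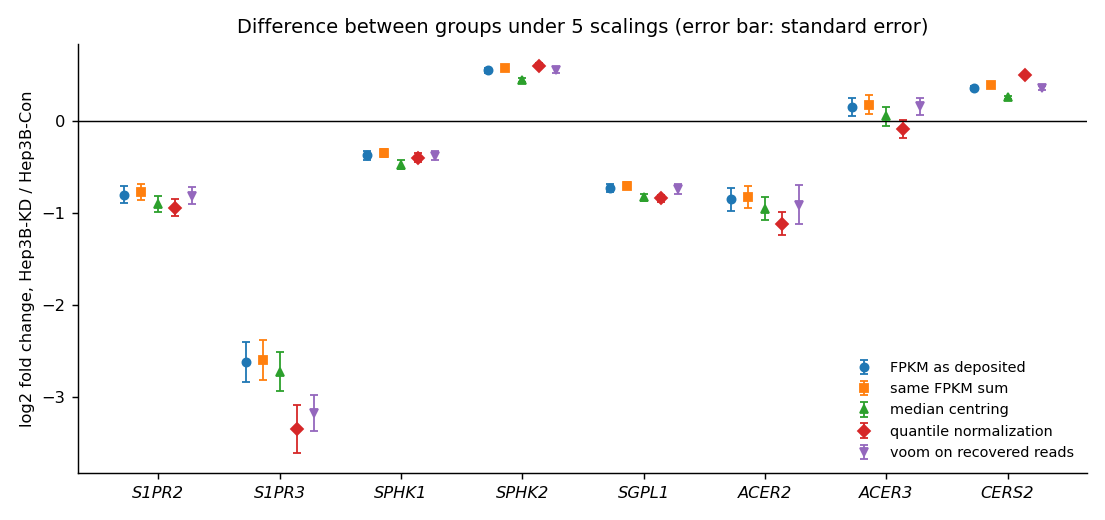
Log2 fold change of the 8 members past the filter, Hep3B-KD over Hep3B-Con, as deposited, after rescaling to the same FPKM sum, after median centring, after quantile normalization and from voom on recovered reads, with bars for 1 standard error. S1PR3 ranges from -3.35 to -2.60 over these 5 scalings, and ACER3 is the member that crosses 0.

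The genes with the closest pattern over the 6 libraries were taken by the smallest root mean square distance between row-centred log2(FPKM + 0.1) values. For S1PR3 these were BHLHA15, a transcription factor of secretory cells, at a distance of 0.0911, GMDS, an enzyme of GDP-fucose synthesis, at 0.128, and EGR1, an immediate early transcription factor, at 0.137. Their mean levels were 17.9, 11.2 and 15.7 FPKM in Hep3B-Con and 3.01, 1.98 and 2.76 FPKM in Hep3B-KD. For ACER2 they were the kinase gene MAP3K11 at 0.0432, FAM89A at 0.0517 and the ubiquitin peptidase gene USP40 at 0.055. Likeness over 6 libraries in 2 groups is mostly a like difference between the groups.

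The rest of the pathway was followed in 6 lists with 70 genes, of which 56 passed the filter, and 44 of these were called (78.6%), 24 higher and 20 lower, where 60.3% of all genes tested were called, 36.3% higher and 24% lower. The median log2 fold change of the 56 was 0.03 against 0.11 over all genes tested. After median centring the split was 17 higher and 22 lower, so the balance of directions depends on the scaling. At least 2-fold calls numbered 7 of 56, of which 4 were higher and 3 lower, where 8.83% of all genes tested were called at 2-fold, 5.88% higher and 2.95% lower. The genes of the lists were chosen with earlier results known, and nothing particular to them is read from these counts.

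Genes that carry, dephosphorylate or degrade S1P were represented by 5 tested genes of 10, with 2 higher, 2 lower and 1 not called, and a median log2 fold change of -0.12. SGPP1, the phosphatase that turns S1P back into sphingosine, was measured at 7.16, 7.21 and 7.27 FPKM in Hep3B-Con and at 5.03, 5.58 and 5.08 FPKM in Hep3B-KD, and fell by 0.46 on the log2 scale (SE 0.0515, adjusted p = 0.000285). APOM, the plasma carrier, went from 8.80 ± 0.769 to 6.73 ± 0.214 FPKM (log2 fold change -0.38, adjusted p = 0.00273). PLPP3, a lipid phosphatase at the cell surface, rose by 0.46 (adjusted p = 0.0164, up to 0.0689 over the alternative settings). ALDH3A2, which oxidises the fatty aldehyde that the lyase releases, rose by 0.24 (adjusted p = 0.000265). The transcripts of the lyase SGPL1 and of the phosphatase SGPP1 were thus both lower, while that of the downstream dehydrogenase was higher.

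Of 14 tested genes of de novo ceramide synthesis, 6 were higher, 3 lower and 5 not called, with a median of 0.02. SPTLC3, a serine palmitoyltransferase subunit that broadens the range of long-chain bases made, was at 0.381, 0.520 and 0.423 FPKM in Hep3B-Con and at 1.32, 1.36 and 1.60 FPKM in Hep3B-KD (log2 fold change 1.5, SE 0.176, adjusted p = 0.000351), and passed the filter through its knockdown libraries. Further along the route, the reductase KDSR fell by 0.58 (adjusted p = 0.00021) and the desaturase DEGS1, which makes ceramide from dihydroceramide, went from 46.1 ± 0.34 to 33.1 ± 1.29 FPKM (log2 fold change -0.48, adjusted p = 2.5e-05). CERS2 and CERS4 were higher, whereas the transcripts of the reductase and the desaturase on either side of the ceramide synthases were lower.

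Of 7 tested genes that release or hydrolyse ceramide, 3 were higher, 3 lower and 1 not called, with a median of 0.04. The galactosylceramidase gene GALC rose by 0.64 and the acid sphingomyelinase gene SMPD1 by 0.62 (adjusted p = 0.000139 and 2.6e-05). The neutral sphingomyelinase gene SMPD2 fell by 0.45 (adjusted p = 0.0071).

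The widest spread was seen among 13 genes that use or move ceramide, where 6 were higher, 5 lower and 2 not called, with a median of 0.06, and 5 differed at least 2-fold. B4GALT5, a lactosylceramide synthase, was at 23.6, 23.6 and 24.7 FPKM in Hep3B-Con and at 6.98, 6.54 and 7.72 FPKM in Hep3B-KD (log2 fold change -1.75, SE 0.0618, adjusted p = 2e-06). Its relative B4GALT6, which makes the same lipid, was at 1.42, 1.51 and 1.59 FPKM against 3.92, 2.80 and 3.52 FPKM (log2 fold change 1.12, SE 0.129, adjusted p = 0.000319). The pair thus differed in opposite directions, and B4GALT5 remained the higher of the pair in every library. UGT8, the galactosylceramide synthase, fell by 1.54, while PLEKHA8, a glycolipid transfer protein also known as FAPP2, and ST3GAL5, the ganglioside GM3 synthase, rose by 1.14 and 1.06 (adjusted p = 0.000308, 4.5e-06 and 0.000469). UGT8, at 0.456 ± 0.0852 FPKM after knockdown, passed the filter through its control libraries.

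Among 15 genes of G protein coupling downstream of the S1P receptors, 7 were higher, 6 lower and 2 not called, with a median of 0.07 and none at 2-fold. The kinase genes ROCK1 and ROCK2, regulators of actomyosin contraction, both rose, ROCK1 from 2.36 ± 0.218 to 4.31 ± 0.16 FPKM and ROCK2 from 3.10 ± 0.153 to 5.60 ± 0.156 FPKM (log2 fold changes 0.84 and 0.84, adjusted p = 0.000119 and 2.6e-05). ARHGEF1, an exchange factor activated by GNA12 and GNA13, fell by 0.60 (adjusted p = 3.1e-05), and GNA12 itself by 0.25 (adjusted p = 0.00135). Other members of the same families were called in the other direction, with log2 fold changes of 0.41 for ARHGEF11, 0.32 for ARHGEF12 and 0.17 for GNA13 (adjusted p = 0.000154, 0.000222 and 0.00346, the last up to 0.118 over the alternative settings).

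Lysophosphatidic acid receptors, a related family, served for comparison. Of 6 genes 2 were tested and 1 was called. LPAR3 was at 1.43, 0.926 and 1.51 FPKM in Hep3B-Con and at 0.249, 0.123 and 0.272 FPKM in Hep3B-KD (log2 fold change -2.15, SE 0.314, adjusted p = 0.00103), and like S1PR3 it passed the filter through its control libraries. LPAR2 was at 3.26 ± 0.256 and 3.15 ± 0.432 FPKM (adjusted p = 0.689). The median log2 fold change of these 2 genes was -1.10.

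**Figure D5:**
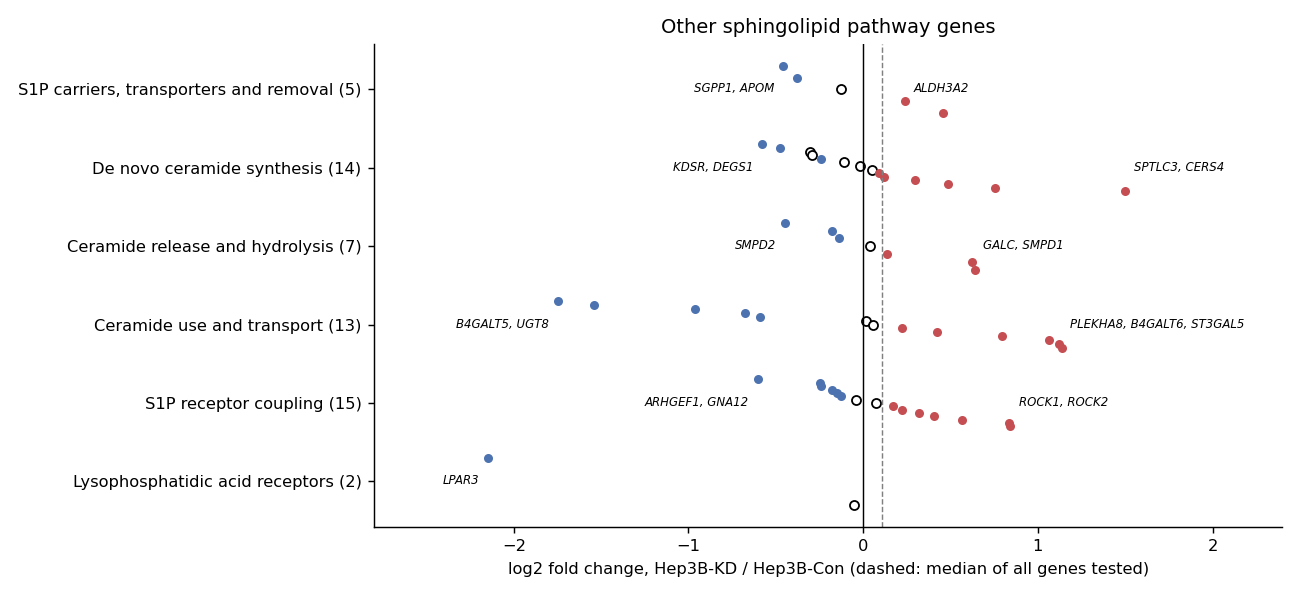
Log2 fold change, Hep3B-KD over Hep3B-Con, of the 56 tested pathway genes in 6 lists with the number tested in brackets, where red and blue points are genes called higher and lower at an adjusted p under 0.05, open points are not called, and the dashed line is the median of all genes tested, 0.11. The named genes have the largest changes of each list and were called under all alternative settings that tested them, and ceramide use and transport spreads from -1.75 to 1.14.

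The seed match of the hairpin was present in the 3′ UTR of 11 of the 67 pathway genes that have one. Of the 8 of these that were tested, B4GALT5 with 3 copies and KDSR, CERK and GNAI2 with 1 each were called lower in Hep3B-KD, GNA13 and SMPD4 were called higher, and CERS6 and GNAI3 were not called. These are 4 lower and 2 higher of 8, where 24% of all genes tested were called lower and 36.3% higher. Of the 56 tested pathway genes 20 were called lower and 24 higher. Calls among all genes with a match were not counted. The calls of GNAI2, GNA13 and SMPD4 were lost under at least 1 alternative setting, with adjusted p up to 0.134, 0.118 and 0.422. ACER2, S1PR2 and SPHK1, lower in Hep3B-KD as well, held no match in the transcripts examined. The part of the match in any of these levels was not tested.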

How the data were processed

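RNA-seq of 3 Hep3B-Con and 3 Hep3B-KD libraries was analysed, with groups taken from the sample titles. The authors deposited FPKM values in 1 table, with 29908 Ensembl identifiers as rows and the 6 libraries as columns. The submitters' processing notes name TopHat2 2.0.12, Bowtie2 2.0.6 and GRCh37, whereas all identifiers and exon lengths matched GENCODE release 29 (GRCh38), which was used for names and coordinates. The counting tool, its strand setting and the annotation are not given in the sources used here. FPKM multiplied by exon length and library total gave whole reads within 0.01 for 100% of values, so that read numbers are those recovered, and intervals and the floor of 3 reads cover counting error only.

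Of rows with a repeated symbol 326 were dropped, the row with the highest mean being kept. The 14147 genes whose mean reached 0.5 FPKM were tested as log2(FPKM + 0.1) with limma 3.58.1 (lmFit, eBayes with trend) in R 4.3.3, and p-values were adjusted over the whole set by Benjamini-Hochberg. Replicates of a group differed by more than counting noise (chi-square per gene 1.8 to 3.3). This cannot tell separate cultures from separate libraries of 1 culture. The 6 libraries were taken as the units of the fit. The fit was tested on simulated data. Tables were handled in Python 3.11.15 with pandas 2.3.3 and numpy 2.4.6, and plots drawn with matplotlib 3.10.9.

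The members, the 6 pathway lists and the 4 marker lists were chosen with earlier results of these data known. Named pathway genes were, for each list, up to 2 called genes with the largest rise and up to 2 with the largest fall, any called gene of at least 2-fold, the other ceramide synthases, S1PR4 and SGPP1, besides DAGLA and the 3 genes most like S1PR3 and like ACER2. An item that falls under this rule is not reported here. Overlapping genes and marker genes are named beside the member they bear on, and genes with a seed match or in a class share, ARHGEF11 and ARHGEF12 were named after their values were seen. The hairpin sequence was read from the study's supplementary material, 3′ UTRs from the GENCODE transcript with the longest coding part and promoters from RefSeq. Alternatives were other filters, pseudocounts, scalings and variance models, a replicate block, each library left out, and voom on recovered reads. The length used for receptor and ceramidase shares and the transcript that gives the 3′ UTR were added after the data had been seen. So were shares and ratios without each library.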

Additional observations from a re-analysis of the deposited data

How the results depend on the processing

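No difference among the 8 members past the filter reversed its called direction. Of 127 member values under alternative settings, 107 moved by less than 1 SD between replicates and 20 by more. All 20 fell under other pseudocounts, other scalings or voom. Other filters, the variance model and the replicate block cannot change a log2 fold change. Values under these settings were the same by construction and say nothing about stability. DAGLA and the counts of called genes kept their side of the threshold or stayed within 1.5 times throughout, with 3 exceptions. With a pseudocount of 1, genes called and at least 2-fold numbered 495 instead of 1249, and pathway genes 2 instead of 7. With a mean of at least 1 FPKM required, pathway genes numbered 3, since fewer genes are then tested. S1PR3, with a mean of 0.883 FPKM, was not tested under that filter, so no member was then called at 2-fold. Leaving out 1 library gave 7821 to 7926 calls against 8529, with 39 to 43 pathway genes against 44, and receptor shares and kinase ratios within 1 SD.

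Of all calls 60.2% were higher in Hep3B-KD as deposited, 48.6% after median centring (4068 higher and 4308 lower) and 52.2% after quantile normalization. Of calls of at least 2-fold 66.6% were higher as deposited, 50.3% with a pseudocount of 1, 53.5% after median centring and 44.8% after quantile normalization.

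Replicate numbers showed no sign of pairing the libraries. The deviations of same-numbered libraries from their group means correlated at -0.00797, -0.0645 and -0.000907. Those of differently numbered libraries correlated at -0.0429 to 0.0508. With 3 libraries in each group these values cannot exclude a paired design. The replicate block gave 7942 calls, 1238 of them at least 2-fold, and 42 pathway genes. S1PR1, S1PR4, S1PR5 and CERS3 are limited by depth, with at most 29 reads in any library.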
